A study of Mus musculus with 26 samples.

Results

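The 38 genes described here are protein-coding Hox genes of the 4 mouse clusters, HoxA, HoxB, HoxC and HoxD, out of 55471 genes in the count table. They were taken by name and position, as genes whose symbol gives a cluster letter and a paralog number. That rule uses no measured value, though earlier results of these data were known when it was chosen. Hox genes encode homeodomain transcription factors that give cells their position along the head-to-tail axis. Within a cluster, genes at the 3′ end carry low paralog numbers and are classically switched on earlier and further forward in the embryo than genes at the 5′ end, an order called collinearity. In embryonic stem cells the clusters are held silent by Polycomb proteins, and retinoic acid, acting through its nuclear receptors, opens them.

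Bulk mRNA was sequenced from KH2 mouse embryonic stem cells taken through retinoic acid differentiation and harvested on days 0, 2 and 4. The wild-type line (WT) was compared with 2 lines labelled as a NAP1L1 alpha knock-out (alphaKO) and a NAP1L1 knock-out (fullKO). NAP1L1 is a histone chaperone that carries H2A-H2B dimers. Each of the 9 groups of 1 genotype and 1 day had 3 libraries, except fullKO at day 0, which had 2. All libraries of a knock-out share 1 prefix in their names, so each genotype may be 1 clone, and nothing in the labels says that replicates came from separate cultures, so the p-values measure only the spread between these libraries, which may be technical.

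Library totals ran from 13537267 to 20569706 counts. Nap1l1 transcript at day 0 was 1025 ± 37.9 CPM (reads scaled to a common library size, SD, n = 3) in WT, 599 ± 26.8 (n = 3) in alphaKO and 399 ± 2.495 (n = 2) in fullKO. It was below WT in both knock-outs on each day, and the deleted part of the gene is not given in the sources used here. Pou5f1, the defining pluripotency factor, stood at 616 ± 4.92 CPM in WT at day 0 and at 3.71 ± 1.38 by day 4. Day 0 cultures also held fibroblast transcripts: 15 fibroblast markers summed to 3243 ± 466 CPM in WT, of which Col1a1 and Col1a2, the chains of type I collagen, made 752 ± 122 and 681.5 ± 95.5 CPM. Those markers differed between the genotypes, and their values are given below beside the day 0 results.

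In GRCm38 coordinates the HoxA members span chr6:52162417-52260880 on the minus strand, HoxB chr11:96194316-96368256, HoxC chr15:102921103-103036852 and HoxD chr2:74668310-74765142, all 3 on the plus strand. HoxA and HoxB hold 10 members each and HoxC and HoxD 9 each. Hoxd3 and Hoxd4 share 62.35% and 52.31% of their exon bases with genes on their own strand, among them each other, so their reads could be split between them and both are uncertain. Hoxb3 faces an antisense gene over 52.93% of its exon bases and Hoxa11 over 34.98%. Hoxb2 (27.32%), Hoxa3 (25.42%), Hoxa7 (20.38%) and Hoxa4 (16%) do so over smaller parts, and 9 members face such genes in all. The kit keeps strand, but the strand setting of the counting is not stated in the labels, and reads of these pairs may be mixed.

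Before retinoic acid the clusters were nearly silent. In WT at day 0 the 38 genes together summed to between 33.9 and 38.5 CPM, and none had a mean above Hoxb9 at 4.13 ± 1.28 CPM. By day 2 the sum was 763 to 820.5 CPM and by day 4 it was 811 to 873 CPM. In bulk RNA, more cells that transcribe a gene and more RNA per cell cannot be told apart.

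**Figure D1:**
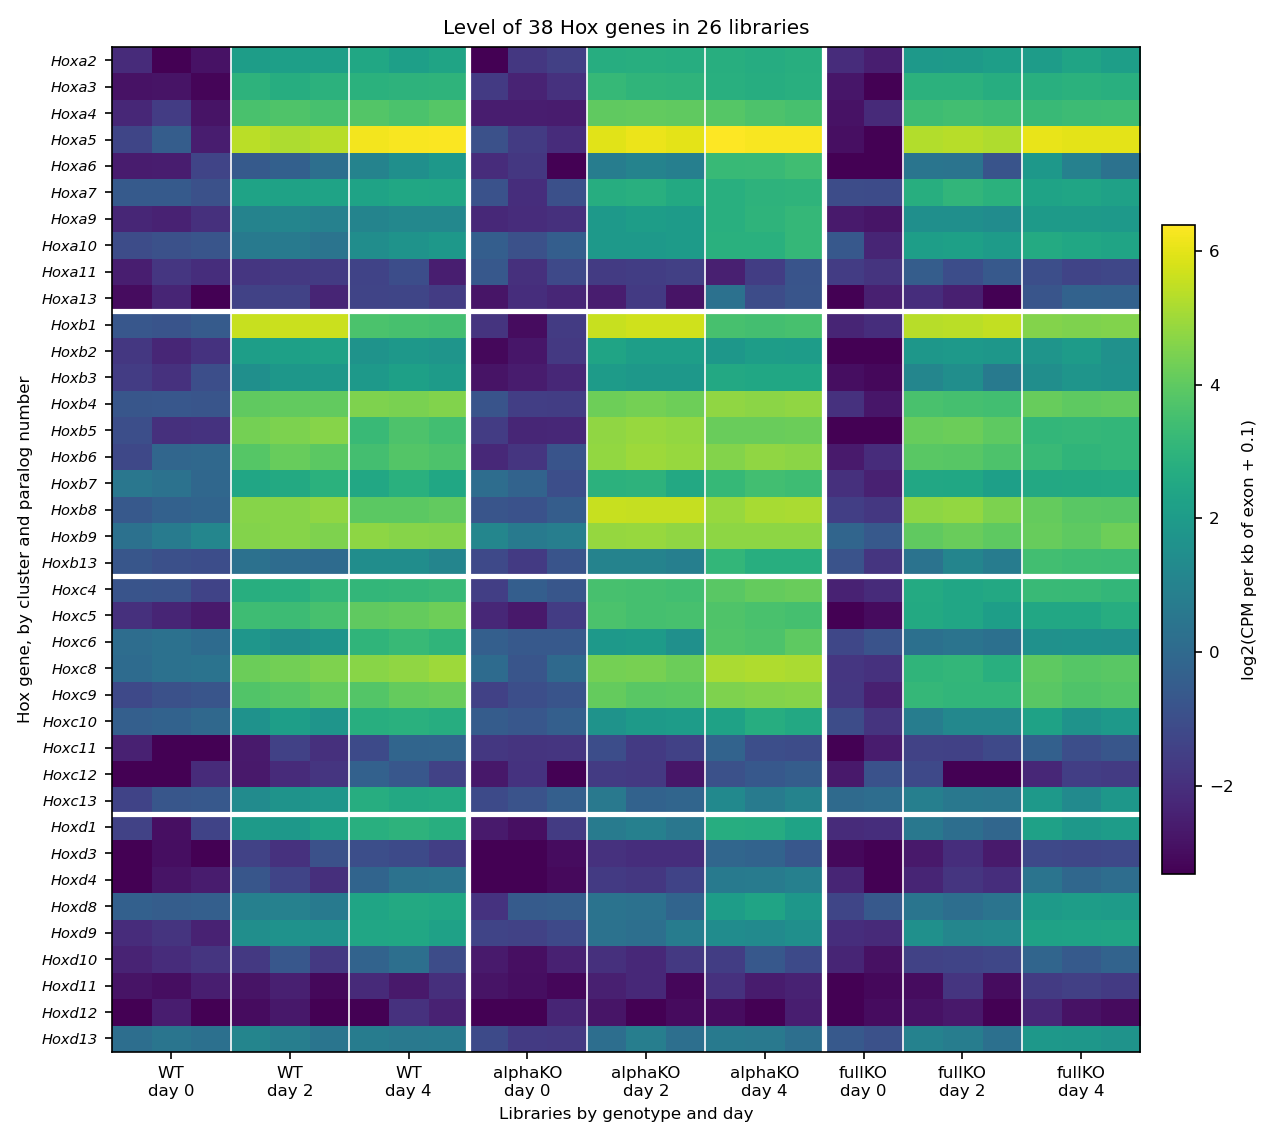
Level of each Hox gene (rows, by cluster and paralog number) in each of the 26 libraries (columns, by genotype and day), as log2 of CPM per kb of exon + 0.1. Day 0 columns are dark in all 4 clusters, Hoxa5 is the brightest row at day 4, and the rows of paralog groups 11 and 12 stay dark at days 2 and 4 in WT.

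Between days 0 and 2 in WT, 33 of the 37 members tested rose and 0 fell, where 36.7% of all 18412 genes tested rose and 34% fell (edgeR quasi-likelihood test, Benjamini-Hochberg adjusted p under 0.05). No member fell at an unadjusted p under 0.05 or with DESeq2 either. The median log2 change of the 37 was 3.91, against 0.06 over all genes. Hoxd12, with at most 7 counts in a library, did not pass the filter on low counts and was not tested. All 7 members of paralog groups 1 to 3 and all 15 of groups 4 to 8 rose, and 11 of 15 tested in groups 9 to 13 did. The 4 that did not pass the test were Hoxa11, Hoxc12, Hoxd10 and Hoxd11, each under 1 CPM on both days.

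Per kb of exon, so that genes can be compared, Hoxb1 was the highest member in WT at day 2, at 49.0 CPM per kb, ahead of Hoxa5 at 39.8, Hoxb8 at 25.3, Hoxb9 at 23.9 and Hoxb5 at 22.4. By day 4 Hoxa5 led at 77.7 CPM per kb, then Hoxc8 at 28.1, Hoxb9 at 25.2 and Hoxb4 at 22.6, and Hoxb1 was down to 11.7. The 5 genes of paralog groups 11 and 12 stayed low in WT on both days, none above 0.66 CPM per kb.

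Most HoxB members were highest at day 2 in WT. There 6 of its 10 members had their highest mean at day 2, namely Hoxb1, Hoxb2, Hoxb5, Hoxb6, Hoxb7 and Hoxb8, whereas all 10 HoxA members, all 9 HoxC members and 8 of 9 HoxD members were highest at day 4. In alphaKO 6 HoxB and 3 HoxA members had their highest mean at day 2, and in fullKO 5 and 4. This count takes the larger mean however small the gap. At day 2 Hoxb7 in WT was at 101.1% of its day 4 mean, and Hoxa3 and Hoxa4 in fullKO were at 101.7% and 104.6%. By the test, 4 HoxB members and 1 HoxA member fell from day 2 to day 4 in fullKO, against 28.9% of all genes. There 3 HoxB and 5 HoxA members rose, against 29.6%. Of the 37 members tested, 19 rose and 5 fell from day 2 to day 4 in WT, against 30.2% and 29.2% of all genes, and all 5 that fell were in HoxB. The promoters of 3 HoxB genes that behaved differently over those days are printed here to set their letters beside their values: Hoxb1, which fell, Hoxb8, which fell less, and Hoxb4, which rose. Each is the 250 bases upstream of the RefSeq start in GRCm38.p6, plus strand, and capitals mark, on either strand, AGGTCA (the core motif bound by retinoic acid receptors, in Hoxb4), CCAAT (in Hoxb1 and Hoxb8), and TTTATG (a core motif of Cdx proteins) and TATAAA (in Hoxb8).
Hoxb1, chr11:96365508-96365757: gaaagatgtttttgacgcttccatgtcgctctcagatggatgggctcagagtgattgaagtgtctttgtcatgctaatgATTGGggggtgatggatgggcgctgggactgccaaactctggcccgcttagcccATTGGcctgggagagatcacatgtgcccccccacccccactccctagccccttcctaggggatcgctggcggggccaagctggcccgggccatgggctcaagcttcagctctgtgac
Hoxb4, chr11:96318017-96318266: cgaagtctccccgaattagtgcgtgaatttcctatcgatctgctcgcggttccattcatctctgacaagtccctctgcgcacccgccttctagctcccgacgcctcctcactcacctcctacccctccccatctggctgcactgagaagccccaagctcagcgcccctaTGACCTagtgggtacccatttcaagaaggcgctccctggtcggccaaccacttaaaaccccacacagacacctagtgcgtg
Hoxb8, chr11:96281655-96281904: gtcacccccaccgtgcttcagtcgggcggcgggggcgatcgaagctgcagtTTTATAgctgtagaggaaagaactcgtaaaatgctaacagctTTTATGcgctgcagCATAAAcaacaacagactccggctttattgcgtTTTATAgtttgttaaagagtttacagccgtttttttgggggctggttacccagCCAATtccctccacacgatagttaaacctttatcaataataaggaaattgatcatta

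These letters are a description and not a test of binding. RefSeq promoters were at hand for 22 of the 38 members, 24 promoters in all. Both strands were searched, and matches were counted whether or not they overlapped another motif. AGGTCA occurred in 6 of the 24 (25%), against 14% of 32851 promoters, and 2 copies spaced by 5 or by 2 bases in direct repeat in 0 of 24, against 0.00913% of all promoters for each. CCAAT was found in 14 of 24 (58.3%, against 33.8%), TTTATG in 5 (20.8%, against 10.8%), TATAAA in 4 (16.7%, against 12.4%) and the Pbx-Hox motif TGATTNAT in 2 (8.33%, against 2.82%). Hox promoters held a median of 12.5 CpG dinucleotides in 250 bases, from 2 to 35, where the median over all promoters was 6. Distal retinoic acid response elements, known from HoxB, were not searched.

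Hoxb1, the gene that gives the fourth hindbrain segment its identity, had 1.23, 1.11 and 1.39 CPM in the WT libraries at day 0. At day 2 it had 112, 115 and 115 CPM, and at day 4 it had 28.7, 27.45 and 25.6. No library of 1 day overlapped another day, and Hoxb1 rose by 6.52 ± 0.11 (log2, ± SE) and then fell by 2.07 ± 0.07 (adjusted p = 7.06e-29). Hoxb5, a gene of the neck and upper trunk, took a smaller step down, from 57.3, 61.6 and 68.1 CPM at day 2 to 26.7, 35.4 and 30.2 at day 4. Its change was -1.01 ± 0.08 (adjusted p = 3.43e-14), with no overlap. Hoxb8, active in the spinal cord and in blood progenitors, fell by 0.69 ± 0.08, from between 64.3 and 71.4 CPM to between 39.9 and 43.8. Hoxb2 fell by 0.44 ± 0.14 and Hoxb6 by 0.32 ± 0.11, and the Hoxb6 call was lost without WT day 4 replicate 1 (-0.25) or WT day 2 replicate 2 (-0.23).

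Hoxb4, a neighbour of Hoxb5 and known for its part in blood stem cells, went the other way. It had 40.99, 42.9 and 42.3 CPM at day 2 and 58.0, 55.1 and 60.8 at day 4, a rise of 0.46 ± 0.07 (adjusted p = 1.67e-07) with no overlap. Hoxb13, the most 5′ gene of the cluster and set apart from its neighbours, rose by 1.24 ± 0.20, from between 2.12 and 2.48 CPM to between 4.48 and 5.835. Hoxb3 rose by 0.33 ± 0.14, a call lost without WT day 2 replicate 1 or WT day 4 replicate 2 (0.24 and 0.25) and with DESeq2 (0.31). Hoxb9 stood at 61.6 ± 2.73 and 64.8 ± 3.06 CPM and Hoxb7 at 9.45 ± 1.49 and 9.35 ± 1.35, and neither passed the test.

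Most HoxA members did not pass the test between day 2 and day 4. From day 2 to day 4 in WT 3 of its 10 members rose and 0 fell, against 30.2% and 29.2% of all genes, so the rises were near the share over all genes. No HoxA member fell at an unadjusted p under 0.05 or with DESeq2. Hoxa5, a regulator of lung and neck skeleton, had 78.4, 69.6 and 76.2 CPM at day 2 and 139.8, 146 and 151 at day 4, a rise of 0.96 ± 0.07 (adjusted p = 2.59e-17). Hoxa10, best known from the uterus, rose by 1.13 ± 0.17 from between 4.06 and 4.95 CPM to between 8.63 and 11.5. Hoxa6 rose by 1.81 ± 0.39 to 1.67, 2.44 and 3.045 CPM. Hoxa2, which patterns the second pharyngeal arch, was at 7.37, 7.85 and 7.87 CPM at day 2 and at 9.57, 7.74 and 8.96 at day 4, and the days overlapped. Hoxa4 likewise was at 19.2, 20.8 and 18.9 CPM and then at 22.2, 19.65 and 22.5. Hoxa3, needed for the thymus and parathyroids, was 43.7 ± 3.35 and 46.2 ± 2.12 CPM. Hoxa13, a gene of digits and the genital tract, stayed under 0.78 CPM in every WT library.

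Of the 9 HoxC members 8 rose from day 2 to day 4 in WT and 0 fell, against 30.2% and 29.2% of all genes. No HoxC member fell at an unadjusted p under 0.05 or with DESeq2, and the median log2 change was 0.97. Hoxc4, at the 3′ end, had 17.1, 17.9 and 22.05 CPM at day 2 and 22.05, 22.5 and 24.5 at day 4. It rose by 0.28 ± 0.11, and that call was lost without WT day 2 replicate 1 or 2 or without WT day 4 replicate 3 (0.20 to 0.24). Hoxc5 rose by 0.70 ± 0.09, from 31.5, 31.1 and 36.5 CPM to 49.75, 52.8 and 58.1. Hoxc6 and Hoxc8, both known from motor neurons that serve the forelimb, rose by 1.46 ± 0.12 and 0.46 ± 0.08. Hoxc13, which acts in hair and nail, had 6.13, 7.58 and 8.31 CPM and then 16.0, 14.05 and 14.8, a rise of 1.02 ± 0.18 with no overlap. Hoxc10 and Hoxc11 rose by 0.97 ± 0.16 and 2.05 ± 0.54, and Hoxc12 by 1.93 ± 0.88. The Hoxc12 call was lost with DESeq2 (1.98), with the replicate block (1.90), without the low-count filter (1.94) and without any 1 library of those days but WT day 4 replicate 3 (1.60 to 2.30). Hoxc9 did not pass the test, at 36.6 ± 4.73 and then 39.4 ± 5.61 CPM.

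HoxD had the lowest summed level in WT at days 2 and 4. Its 9 members summed to 25.2 to 26.01 CPM in WT at day 2 and 47.4 to 53.2 at day 4, where HoxA summed to 169.8 to 182 and then 252 to 274. In WT 5 HoxD members rose from day 2 to day 4 and 0 of 8 tested fell, against 30.2% and 29.2% of all genes. No HoxD member fell at an unadjusted p under 0.05 or with DESeq2. Hoxd1, at the 3′ end, had 7.06, 6.63 and 8.99 CPM at day 2 and 12.7, 14.35 and 12.6 at day 4, a rise of 0.80 ± 0.18 (adjusted p = 0.000111). Hoxd8 rose most in CPM, from 4.675 ± 0.43 to 15.2 ± 1.03, and Hoxd9 rose by 0.83 ± 0.15. Hoxd4 went from 1.49, 0.880 and 0.437 CPM to 2.32, 3.39 and 3.62, a rise of 1.73 ± 0.35. Hoxd13, a gene of digits, was already at 2.57, 3.14 and 2.77 CPM at day 0, had 5.08, 4.20 and 3.185 at day 2 and 3.92, 3.57 and 3.62 at day 4, and the last 2 days overlapped.

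Paralog group 4 shows how far genes of like position differed between clusters. Per kb of exon at day 4 in WT, Hoxb4 was at 22.6 CPM per kb, Hoxa4 at 13.45, Hoxc4 at 8.96 and Hoxd4 at 1.055. In group 5 Hoxa5 was at 77.7, Hoxc5 at 17.3 and Hoxb5 at 11.0 CPM per kb. Among genes of groups 9 and 10, Hoxb9 was at 25.2 and Hoxc9 at 16.2, ahead of Hoxc10 at 6.84, Hoxd9 at 5.11, Hoxa10 at 3.07, Hoxa9 at 2.13 and Hoxd10 at 0.740 CPM per kb.

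Collinearity of level was read as a rank correlation. Over the 38 genes the rank correlation of paralog number with log2 CPM per kb was 0.06 in WT at day 0, -0.53 at day 2 and -0.43 at day 4, a negative value meaning that genes nearer the 3′ end were higher. Genes share the libraries, so these are descriptions. By cluster at day 2 it was -0.75 in HoxA (n = 10), -0.63 in HoxC (n = 9), -0.40 in HoxD (n = 9) and -0.12 in HoxB (n = 10). At day 4 it was still -0.75 in HoxA and -0.73 in HoxC, and 0.14 in HoxB. In alphaKO the values over 38 genes were 0.27, -0.49 and -0.40 on the 3 days. FullKO had 0.39, -0.43 and -0.34. The day 0 values rest on few counts, with 296 and 224 over all members in the fullKO libraries. Genes at 0 counts in a library are ranked there by exon length alone. HoxA in alphaKO went from -0.81 at day 2 to -0.35 at day 4, with single libraries at -0.44 to -0.35 at day 4 and at -0.78 to -0.75 in WT.

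The step from day 2 to day 4 was set against position too. The rank correlation of paralog number with the log2 change from day 2 to day 4 was 0.35 in WT, 0.32 in alphaKO and 0.32 in fullKO over 37 genes, a positive value meaning that changes were higher toward the 5′ end. Within HoxD it was -0.81 in alphaKO and -0.74 in fullKO over 8 genes, where WT had -0.10. At the 3′ end of HoxD, Hoxd4 rose by 2.76 ± 0.35 and 2.83 ± 0.39, Hoxd3 by 2.21 ± 0.40 and 1.89 ± 0.45 and Hoxd1 by 1.94 ± 0.20 and 1.89 ± 0.21 in alphaKO and fullKO. Hoxd8 rose by 2.03 ± 0.19 and 1.75 ± 0.18. Hoxd3 and Hoxd4 share exon bases, as given above.

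**Figure D2:**
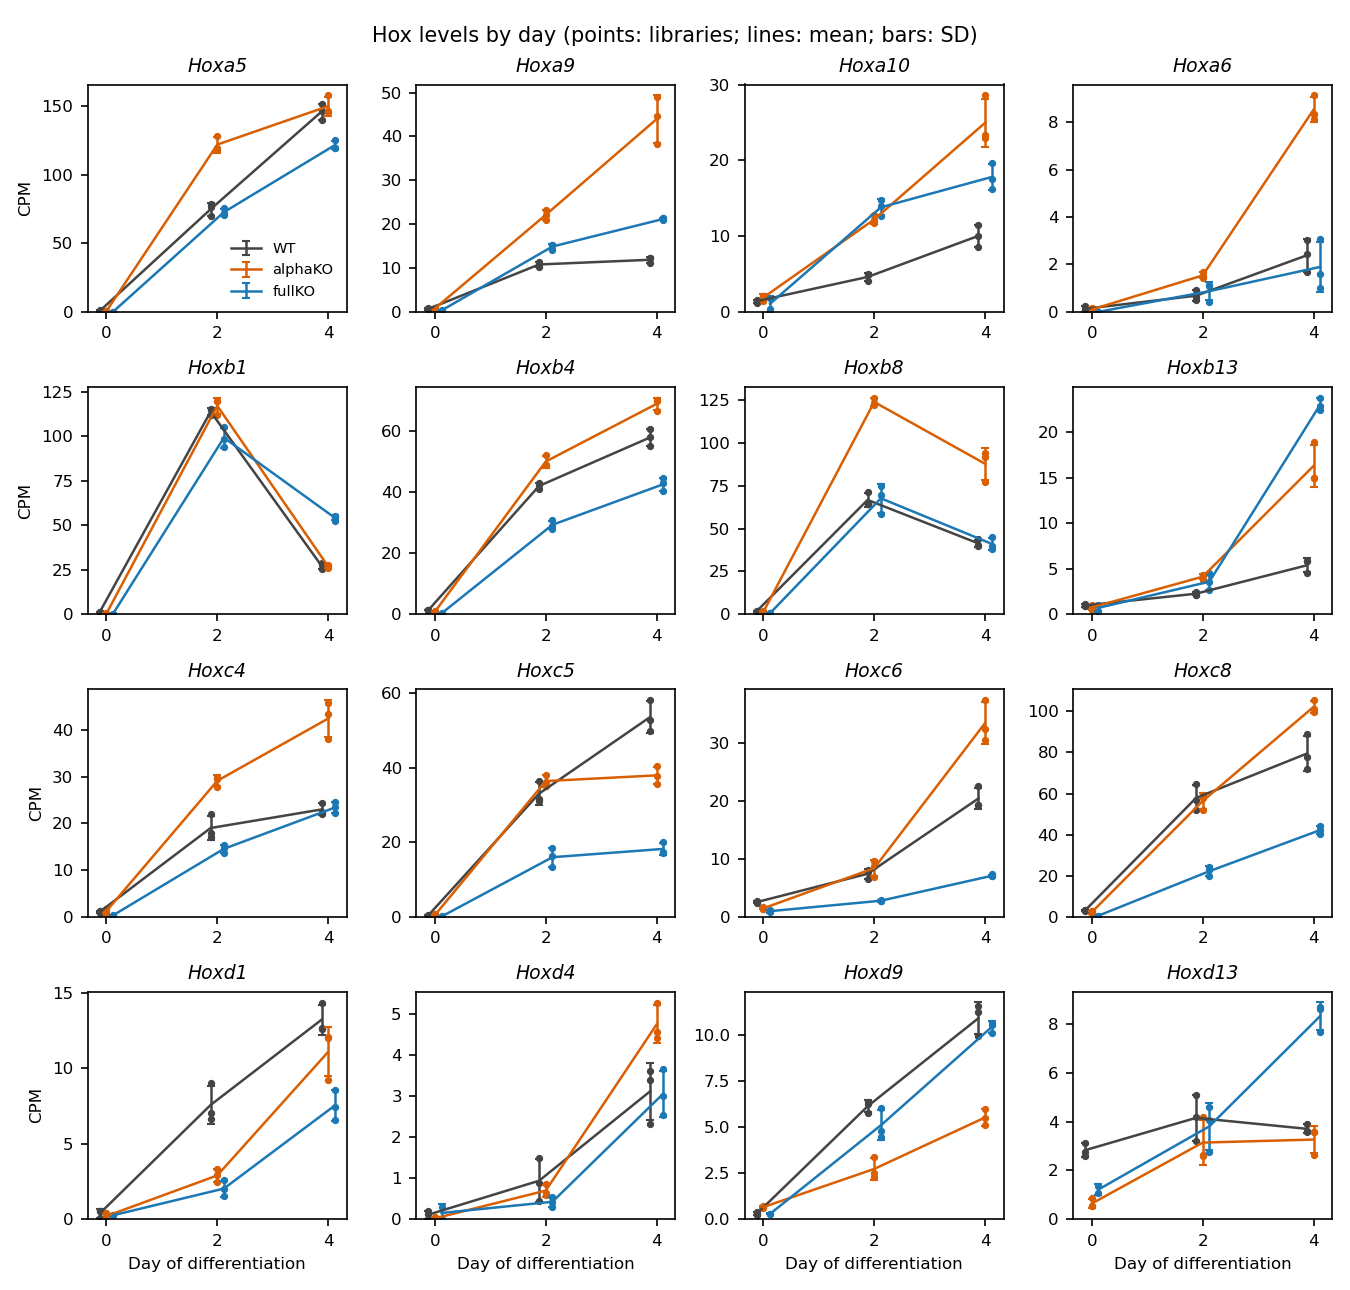
CPM of 4 genes from each cluster on days 0, 2 and 4 in WT (grey), alphaKO (orange) and fullKO (blue). Points are libraries, lines join means and bars are SD. Hoxb1 and Hoxb8 peak at day 2, Hoxc5, Hoxc6 and Hoxc8 run lowest in fullKO, and Hoxa9 runs highest in alphaKO.

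Both knock-outs switched on the clusters. From day 0 to day 2, 31 of 37 members rose in alphaKO and 34 in fullKO, against 34.5% and 33.5% of all genes. None fell in either, where 33.5% and 31.4% of all genes fell, nor did any at an unadjusted p under 0.05 or with DESeq2. Without fullKO day 2 replicate 1 Hoxc12 was called lower in fullKO, and its 7 counts of that day were all in that library. From day 2 to day 4, 21 rose and 5 fell in alphaKO, against 30.1% and 28.1% of all genes, and 22 rose and 5 fell in fullKO, against 29.6% and 28.9%. Hoxb1 fell in all 3 genotypes, by 2.12 ± 0.07 in alphaKO and by 0.87 ± 0.06 in fullKO. Hoxb5 and Hoxb8 fell in all 3 too. All 38 members together summed to 980.5 to 1028 CPM in alphaKO and 605 to 667 in fullKO at day 2, and to 1061 to 1094 and 694 to 731 at day 4, where WT had the sums given above and no sum of a knock-out overlapped WT.

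AlphaKO ran above WT in much of HoxA and HoxB. At day 2, 14 of 37 members were higher and 4 lower, against 19.9% and 20.3% of all genes. At day 4, 18 were higher and 4 lower, against 28.7% and 24%. By cluster at day 4, HoxA had 6 higher and 0 lower of 10, HoxB 7 and 0 of 10, HoxC 4 and 2 of 9, and HoxD 1 and 2 of 8 tested. At day 2, HoxA had 7 higher and 0 lower, HoxB 6 and 0, HoxC 1 and 1, and HoxD 0 and 3. DESeq2 also called 0 lower in HoxA and HoxB on either day and 0 higher in HoxD at day 2. At an unadjusted p under 0.05, Hoxa3 (-0.17 ± 0.08, adjusted p = 0.0764) was the 1 member of HoxA and HoxB that was lower, at day 4, and it was called (-0.20) when only the groups compared were fitted. Leaving out each library in turn, 13 of the 14 and 15 of the 18 higher calls were kept in every case.

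Hoxa9, a regulator of blood stem cells, showed the widest gap in alphaKO at day 4. It had 38.25, 44.55 and 49.1 CPM in alphaKO and 11.1, 12.3 and 12.2 in WT, a difference of 1.89 ± 0.10 (adjusted p = 2.74e-21). At day 2 it had 21, 23.3 and 22.1 CPM against 10.7, 11.4 and 10.3 (1.04 ± 0.10). The libraries did not overlap on either day, and in WT the step between those days did not pass the test (0.14 ± 0.11). Its neighbour Hoxa10 had 12.15, 11.7 and 12.8 CPM at day 2 and 22.9, 23.4 and 28.6 at day 4, above WT by 1.41 ± 0.17 and 1.31 ± 0.14. Hoxa6 had 8.13, 8.33 and 9.13 CPM at day 4, above WT by 1.82 ± 0.29 (adjusted p = 5.375e-07). At day 2 Hoxa6 was above WT by 1.16 ± 0.41, and that call was lost without WT replicate 1 (0.97), WT replicate 2 (1.10) or alphaKO replicate 2 (1.10). Hoxa13 had 2.84, 0.9315 and 1.22 CPM at day 4 against 0.725, 0.774 and 0.5745. Its call (1.25 ± 0.53, adjusted p = 0.0424) was lost without any 1 of the WT libraries (1.13 to 1.35) and fell to 0.63 without alphaKO replicate 1.

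Hoxa7 was higher on both days, by 0.41 ± 0.11 and 0.52 ± 0.11. At the 3′ end of HoxA, Hoxa2 had 11.7, 12.1 and 11.5 CPM in alphaKO at day 2, above WT by 0.61 ± 0.15, and 11.8, 11.45 and 11.96 at day 4, above by 0.42 ± 0.15, a call lost without WT replicate 2 (0.34) or alphaKO replicate 3 (0.40). Hoxa4 was above WT at day 2 by 0.40 ± 0.09, with 25.85, 26.5 and 25.5 CPM, and at day 4 it had 22.8, 20.4 and 18.8 and overlapped WT. Hoxa5 had 118, 128 and 119 CPM at day 2, above WT by 0.70 ± 0.07 (adjusted p = 2.07e-12), and 158, 146 and 146 at day 4, where it overlapped WT.

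In HoxB the larger gaps lay at Hoxb5 to Hoxb8 and at Hoxb13. Hoxb1 had 112, 119.7 and 119.7 CPM in alphaKO at day 2 and 27.5, 26.1 and 27.01 at day 4, overlapping WT on both days. Hoxb4 had 48.9, 52.3 and 48.98 CPM at day 2 and 70, 66.7 and 70.3 at day 4, above WT by 0.25 ± 0.07 on each day with no overlap. Hoxb5 had 49.8, 49.4 and 50.8 CPM at day 4, above by 0.70 ± 0.09. Hoxb7 was above by 0.73 ± 0.15 at day 4. Hoxb6 was above WT by 0.93 ± 0.10 at day 2 and 1.06 ± 0.10 at day 4. Hoxb8 had 126.5, 124 and 122 CPM at day 2 and 77.25, 92.1 and 94.4 at day 4, above WT by 0.89 ± 0.07 and 1.09 ± 0.08 (adjusted p = 1.03e-16) with no overlap. Hoxb13 had 18.9, 14.96 and 14.98 CPM at day 4, above WT by 1.60 ± 0.16 (adjusted p = 3.66e-12). Hoxb9 did not pass the test at day 4, at 68.4 ± 0.42 CPM in alphaKO and 64.8 ± 3.06 in WT.

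HoxC split within the cluster in alphaKO. Hoxc4 had 38.2, 43.5 and 45.9 CPM at day 4, above WT by 0.88 ± 0.10, while Hoxc5 next to it had 40.4, 37.6 and 35.7 and differed by -0.50 ± 0.09. Hoxc6, Hoxc8 and Hoxc9 were above WT by 0.71 ± 0.11, 0.36 ± 0.08 and 0.55 ± 0.09 at day 4. Hoxc13 at the 5′ end was lower on both days: it had 3.48, 1.78 and 2.00 CPM at day 2 and 5.73, 3.78 and 4.76 at day 4, differences of -1.61 ± 0.22 and -1.66 ± 0.19. In HoxD, Hoxd1 had 2.91, 3.29 and 2.48 CPM at day 2, a difference of -1.39 ± 0.21 (adjusted p = 2.92e-07), and 12.04, 12 and 9.195 at day 4, where it did not pass the test. Hoxd9, a limb gene, was lower on both days, by -1.16 ± 0.17 and -0.98 ± 0.15, with 5.48, 5.10 and 5.98 CPM at day 4 against 11.2, 11.55 and 9.94 in WT. Hoxd8 was lower too (-0.73 ± 0.21 and -0.40 ± 0.16), with both calls lost in at least 1 leave-out (-0.56 at day 2, -0.41 to -0.28 at day 4). Hoxd3 was higher at day 4 (1.07 ± 0.36), a call lost without WT replicate 3 (0.88) or alphaKO replicate 1 (0.94).

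FullKO ran below WT across HoxC and much of HoxB. At day 2, 5 of 37 members were higher and 18 lower than WT, against 23.8% of all genes in each direction. At day 4, 5 were higher and 15 lower, against 25.1% and 24.5%. HoxC had 0 higher and 7 lower of 9 at day 2 and 0 and 6 at day 4, and no HoxC member was higher at an unadjusted p under 0.05 or with DESeq2. HoxB had 1 and 6 of 10 at day 2 and 2 and 5 at day 4, and HoxA 4 and 1, then 2 and 2. HoxD had 0 higher and 4 lower of 8 tested at day 2 and 1 and 2 at day 4. Leaving out each library in turn, 13 of the 18 and 12 of the 15 lower calls were kept in every case. WT libraries enter both knock-out comparisons, so the 2 sets of differences are not independent.

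Hoxc8, a gene of the thoracic level, had 22.6, 24.2 and 19.6 CPM in fullKO at day 2 and 52.0, 56.9 and 64.6 in WT, a difference of -1.38 ± 0.09 (adjusted p = 4.93e-18). At day 4 it had 44.2, 40.1 and 42.3 against 71.7, 77.8 and 88.9 (-0.92 ± 0.08). Hoxc6 was at 2.63, 2.94 and 2.685 CPM at day 2 and 6.96, 7.28 and 6.94 at day 4, differences of -1.43 ± 0.16 and -1.53 ± 0.12. Neither gene overlapped WT on either day. Hoxc5 had 18.3, 16.3 and 13.2 CPM at day 2 and 17.1, 17.35 and 20.1 at day 4, differences of -1.05 ± 0.10 and -1.56 ± 0.10 (adjusted p = 5.815e-18). Hoxc4 at the 3′ end differed less: its call at day 2 (-0.39 ± 0.11) was lost without WT replicate 3 (-0.27), and at day 4 it had 24.5, 23.5 and 22.2 CPM and overlapped WT. Hoxc13 was lower by -0.99 ± 0.20 and -0.93 ± 0.17, with 4.305, 3.43 and 3.32 CPM and then 9.16, 5.89 and 8.46. Hoxc10 was lower by -0.78 ± 0.18 and -0.83 ± 0.16, and Hoxc9 by -0.83 ± 0.09 at day 2. The Hoxc9 call at day 4 (-0.23 ± 0.09) was lost without WT replicate 2 or 3 or fullKO replicate 2 or 3 (-0.23 to -0.15).

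Genes at both ends of HoxB departed from that pattern at day 4. Hoxb1 had 94.0, 98.2 and 105 CPM in fullKO at day 2, a difference from WT of -0.20 ± 0.06, and 55.3, 52.6 and 54.6 at day 4, above WT by 0.99 ± 0.07 (adjusted p = 9.69e-17). No library overlapped on either day, and the sign of the difference turned. Hoxb13 had 23.8, 22.9 and 22.4 CPM at day 4 against 5.80, 5.835 and 4.48 in WT, a difference of 2.10 ± 0.15 (adjusted p = 5.20e-16). At day 2 Hoxb13 had 2.68, 4.51 and 3.53 CPM (0.66 ± 0.21), a call lost without fullKO replicate 2 (0.46). Between those ends Hoxb4 had 30.8, 29.1 and 28.1 CPM at day 2 and 44.6, 40.3 and 42.97 at day 4, differences of -0.52 ± 0.07 and -0.44 ± 0.07. Hoxb5 was lower by -0.38 ± 0.08 and -0.37 ± 0.09, with 23.6, 24.2 and 23.8 CPM at day 4. Hoxb9 was lower by -0.53 ± 0.08 on each day and Hoxb6 by -0.54 ± 0.11 at day 4. Hoxb8 was at 67.7 ± 8.35 CPM at day 2 and 41.1 ± 3.60 at day 4, overlapping WT on both days.

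HoxA in fullKO held genes on both sides. Hoxa10 had 14.0, 14.8 and 12.7 CPM at day 2 and 19.7, 17.5 and 16.2 at day 4, above WT by 1.58 ± 0.16 (adjusted p = 2.05e-11) and 0.82 ± 0.14. Hoxa9 was above WT by 0.47 ± 0.10 and 0.83 ± 0.10, with 21.3, 21.3 and 20.9 CPM at day 4. Hoxa7 was higher at day 2 (0.61 ± 0.11). Hoxa2 overlapped WT on both days, with 6.69, 6.82 and 7.58 CPM at day 2. Hoxa4 was lower at day 4 by -0.43 ± 0.10, with 15.1, 16.1 and 16.5 CPM, and Hoxa5 by -0.27 ± 0.06, with 125, 119.6 and 119.5. Hoxa13 had 1.22, 1.81 and 1.75 CPM at day 4 and did not pass the test (1.201 ± 0.53, adjusted p = 0.0535), though it did without the low-count filter, with the replicate block and with only the groups compared (1.202 to 1.23).

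At the 3′ end of HoxD, Hoxd1 had 2.58, 1.96 and 1.53 CPM in fullKO at day 2 against 7.06, 6.63 and 8.99 in WT (-1.90 ± 0.21, adjusted p = 3.14e-10), and 8.58, 6.56 and 7.44 against 12.7, 14.35 and 12.6 at day 4 (-0.81 ± 0.17). Hoxd3 had 0.253, 0.589 and 0.263 CPM at day 2 and differed from WT by -1.71 ± 0.47. Hoxd4 was lower at day 2 by -1.13 ± 0.46, with overlapping libraries, and lost that call without WT replicate 1 or 2 or fullKO replicate 1 or 3 (-1.18 to -0.63). Hoxd8 was lower by -0.52 ± 0.20 at day 2, lost without WT replicate 1 or 2 or fullKO replicate 2 or 3 (-0.55 to -0.44), and by -0.47 ± 0.16 at day 4, lost without WT replicate 2 (-0.42). At the other end, Hoxd13 had 8.695, 8.625 and 7.67 CPM at day 4 against 3.92, 3.57 and 3.62, a difference of 1.17 ± 0.20 (adjusted p = 2.32e-06).

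**Figure D3:**
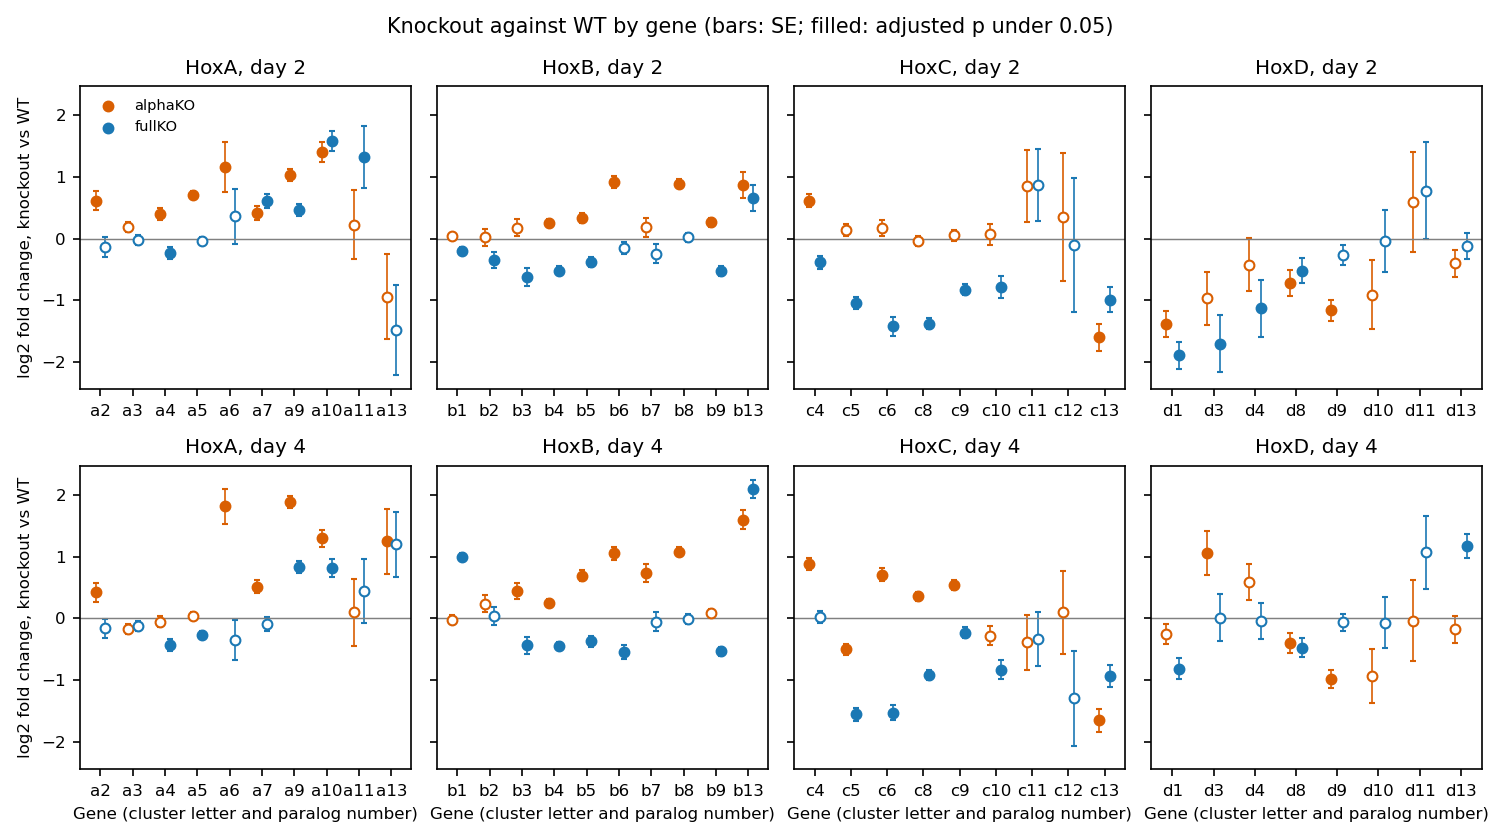
Log2 difference from WT of each member tested, by cluster and paralog number, in alphaKO (orange) and fullKO (blue) at days 2 and 4. Bars are SE and filled points passed the test. In HoxC the fullKO points of Hoxc5, Hoxc6 and Hoxc8 lie between -1.56 and -0.92 on both days, and at day 4 Hoxb13 is the highest fullKO point at 2.10.

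Set directly against each other, the knock-outs differed in most of HoxB and HoxC. AlphaKO was above fullKO in 20 of 37 members and below in 2 at day 2, against 13% and 12.3% of all genes, the 2 being Hoxd9 (-0.90 ± 0.17) and Hoxc13 (-0.61 ± 0.23). The Hoxc13 libraries overlapped, and its call was lost without alphaKO replicate 2 or 3 or fullKO replicate 1 or 2 (-0.67 to -0.44). At day 4 it was above in 22 and below in 5, against 17.4% and 15.4%. In paralog groups 4 to 8, 11 of 15 were higher in alphaKO at day 2 and 13 of 15 at day 4, and 0 were lower on either day, also at an unadjusted p under 0.05 and with DESeq2. Hoxc6 showed the widest gap at day 4, 32.4, 30.5 and 37.4 CPM against 6.96, 7.28 and 6.94 (2.24 ± 0.12, adjusted p = 1.06e-19), and Hoxb6 was apart by 1.60 ± 0.10. The 5 that were lower in alphaKO at day 4 were Hoxb1 (-1.01 ± 0.07), Hoxb13 (-0.50 ± 0.13), Hoxc13 (-0.72 ± 0.19), Hoxd9 (-0.92 ± 0.15) and Hoxd13 (-1.35 ± 0.20), 4 of them in paralog groups 9 to 13.

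Whether the step from day 2 to day 4 itself differed from that of WT was tested for each gene. In alphaKO 9 members stepped up more and 4 less than in WT, against 15.4% and 13.1% of all genes. In fullKO 9 stepped up more and 3 less, against 13.1% and 10.5%. Hoxb1 differed most clearly in fullKO (1.19 ± 0.09, adjusted p = 2.40e-14), and Hoxb13 (1.44 ± 0.27) and Hoxd13 (1.29 ± 0.29) did too. In alphaKO Hoxa5 stepped up less (-0.67 ± 0.09, adjusted p = 8.58e-08), and Hoxa9 stepped up more (0.85 ± 0.14).

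At day 0, when no member had a mean above 4.13 CPM in WT, fullKO had less residual Hox RNA than WT. Of 37 members 1 was higher and 17 lower, against 16.2% and 17.7% of all genes, and 9 of the 17 were in HoxB and 6 in HoxC. HoxB summed to between 13.55 and 16.8 CPM in the WT libraries, to between 8.515 and 11.8 in alphaKO and to 3.30 and 4.88 in fullKO. HoxC summed to between 9.81 and 11.1, between 8.22 and 10.3, and to 5.06 and 5.61 CPM. Neither sum overlapped between fullKO and WT.

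Single genes at day 0 rested on few counts. Hoxc8 had 46, 52 and 51 counts in WT, against 47, 24 and 49 in alphaKO, and fullKO had 9 and 7, a difference of -2.60 ± 0.36 from WT (adjusted p = 7.17e-08). Hoxb7 had 36, 29 and 20 counts in WT and 4 and 2 in fullKO (-3.17 ± 0.51). Hoxb3 had 0.993, 0.6765 and 1.72 CPM in WT and 0.119 and 0.066 in fullKO (-3.47 ± 0.70). Hoxb6 had 0.6425, 1.60 and 1.72 against 0.119 and 0.264 (-2.74 ± 0.58). Hoxb4 had 1.285, 1.35 and 1.25 against 0.4165 and 0.132 (-2.18 ± 0.41), and none of these 3 overlapped WT. Hoxa5, under 1 CPM in both groups, was lower by -4.07 ± 0.99. Hoxb2 and Hoxb5 had 0 counts in both fullKO libraries, which, with a floor of 3 counts over the group, is at least 5.91-fold and 7.11-fold lower than WT. Hoxc13 was the 1 member that was higher, at 2.26 and 2.51 CPM against 0.701, 1.23 and 1.32 (1.14 ± 0.33), and its call was lost without fullKO replicate 2 (1.07). The median over the 37 members was -1.19 as fitted, and -1.01 with the genes at 0 counts set at their bounds.

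AlphaKO differed less from WT at day 0, with 3 members higher and 6 lower, against 17.7% and 20.9% of all genes. Hoxd13 had 0.872, 0.528 and 0.517 CPM against 2.57, 3.14 and 2.77 in WT (-2.14 ± 0.30, adjusted p = 9.02e-08). Hoxb1 was at 0.407, 0.0587 and 0.517 CPM against 1.23, 1.11 and 1.39 (-1.86 ± 0.34), and neither overlapped WT. Hoxb3 had 0.174, 0.294 and 0.465 CPM in alphaKO (-1.79 ± 0.44) and Hoxc6 had 1.63, 1.35 and 1.34 against 2.45, 2.77 and 2.31 (-0.80 ± 0.22). Hoxb6 had 0.232, 0.352 and 0.930 CPM (-1.30 ± 0.38) with overlapping libraries, and the call of Hoxb4 (-0.66 ± 0.27) was lost with DESeq2 (-0.67) and without any 1 library but alphaKO replicate 1 (-0.68 to -0.47). The 3 that were higher were Hoxa3 (2.32 ± 0.47), Hoxc11 (2.47 ± 0.89) and Hoxd9 (1.16 ± 0.41), each with a mean under 1 CPM in both groups, and the Hoxc11 and Hoxd9 calls were lost without WT replicate 3 (1.97 and 0.97), among other libraries. Against fullKO, alphaKO had 14 members higher and 1 lower, against 14.4% and 14.6% of all genes. The 1 lower was Hoxc13 (-0.95 ± 0.32), and 6 of the 14 kept their call when each library was left out in turn.

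Fibroblast transcripts differed between the genotypes as well. The 15 markers, added up per library, came to 2799 to 3729 CPM in WT at day 0, 1532 to 2336 in alphaKO and 304 to 458 in fullKO, and 15 of 15 were lower than WT in each knock-out, with none of the 15 at 0 in a group. Over all genes 20.9% were lower in alphaKO and 17.7% in fullKO at day 0. Col1a2 was at 414.8 ± 107 CPM in alphaKO and 76.5 ± 23.1 in fullKO. At day 2 the sums were 998 to 1116, 336 to 440 and 157 to 171 CPM, with 13 and 14 of 15 lower, and at day 4 they were 1816 to 1900, 822 to 917 and 676 to 725, with 10 lower in each knock-out and 1 higher in fullKO. Over all genes 20.3% were lower in alphaKO and 23.8% in fullKO at day 2. At day 4 the shares lower were 24% and 24.5%, and 25.1% were higher in fullKO. In WT from day 2 to day 4, 7 of the 15 rose and 6 fell, against 30.2% and 29.2% of all genes. Col3a1 changed by 3.28 ± 0.12 and Dpt by -3.91 ± 0.56, so the sums do not follow all 15 markers alike. In alphaKO at days 2 and 4 the fibroblast sums were below WT, whereas the sums over all Hox members were above WT. In fullKO both sums were below WT on those days. The part of fibroblast RNA in the Hox results was not tested. Stem cell markers moved the other way: 7 of them summed to 71.5 to 82.0 CPM in WT at day 4, 264 to 283 in alphaKO and 394 to 413 in fullKO, with 7 of 7 higher in both, and their part was not tested either. Over all genes 28.7% were higher in alphaKO and 25.1% in fullKO at day 4.

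**Figure D4:**
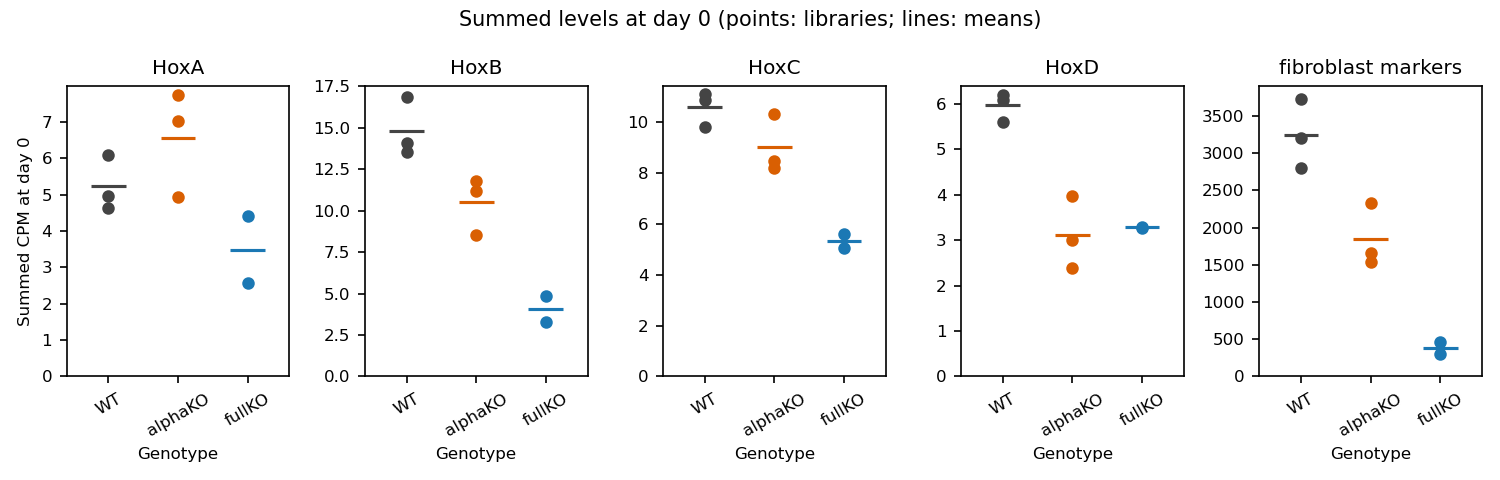
Summed CPM at day 0 of the members of each cluster and of 15 fibroblast markers, by genotype. Points are libraries and lines are means, and each axis starts at 0. HoxB and the fibroblast markers both run from WT at the top to fullKO at the bottom, whereas the HoxA libraries of WT and alphaKO overlap.

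Noncoding RNAs of the clusters were read beside the members. Of 17 listed 9 were tested, and 7 of them rose from day 0 to day 2 in WT, against 36.7% of all genes. Hoxaas3, an antisense RNA of HoxA, was higher in alphaKO at day 4 (0.89 ± 0.16), as was Hoxb5os, antisense to Hoxb5 (0.42 ± 0.16). In fullKO Hoxb5os was lower at both days, by -1.64 ± 0.26 and -0.61 ± 0.17. Halr1, transcribed beyond the 3′ end of HoxA, was higher in fullKO at both days, at 59.6 ± 4.32 CPM against 34.04 ± 2.44 at day 2 and 19.45 ± 2.14 against 8.73 ± 0.42 at day 4. Haglr, antisense in HoxD, was lower at day 2 in both knock-outs, by -0.90 ± 0.22 and -1.04 ± 0.22.

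Genes around the clusters were compared as well. Within 2 Mb of a cluster, 26 genes were tested around HoxA, 108 around HoxB, 57 around HoxC and 30 around HoxD. Their median differences from WT lay between -0.10 and 0.32 over the 4 clusters, 2 knock-outs and 3 days. Around HoxC the fullKO medians were -0.01 at day 2 and 0.02 at day 4, where the HoxC members had -0.83 and -0.92. Ttll6, a tubulin-modifying enzyme gene that flanks HoxB, was higher in fullKO by 2.45 ± 0.22 at day 2 and 2.24 ± 0.24 at day 4. In alphaKO it was higher too, by 1.68 ± 0.23 and 0.94 ± 0.28.

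Regulators of Hox genes were read from lists of known factors. Of 14 retinoic acid receptors and enzymes, 8 rose and 5 fell in WT by day 2, against 36.7% and 34% of all genes. Rarb, the receptor gene that retinoic acid induces, at day 2 reached 14.2 ± 1.24 CPM in WT, against 19.7 ± 0.92 in alphaKO and 16.5 ± 0.24 in fullKO. Against WT, 5 of the 14 were higher and 4 lower in alphaKO at day 2, and 1 and 5 in fullKO. Over all genes the shares were 19.9% and 20.3%, and 23.8% each way. Crabp2, which carries retinoic acid to its receptors, was lower in fullKO by -2.15 ± 0.05 at day 2 and -1.06 ± 0.06 at day 4. Aldh1a2, which makes retinoic acid, was higher at day 4 by 4.06 ± 0.20 in alphaKO and 2.23 ± 0.21 in fullKO.

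Cdx factors, which activate central and posterior Hox genes, were highest at day 2 in WT: all 3 rose by day 2 and all 3 fell by day 4. Over all genes 36.7% rose by day 2 and 29.2% fell from day 2 to day 4. Cdx1 was at 37.4 ± 6.29 CPM in WT at day 2 and 3.60 ± 0.04 at day 4, and at day 4 it was higher in alphaKO by 0.80 ± 0.17 and in fullKO by 1.54 ± 0.15. At day 0 Cdx1 was at 33.4 ± 1.13 CPM in alphaKO against 4.59 ± 1.26 in WT. TALE proteins bind DNA together with Hox proteins, and 7 of 9 of their genes rose by day 2 in WT, against 36.7% of all genes. In fullKO 1 of the 9 was higher and 5 lower than WT at day 2, against 23.8% of all genes each way. Among the lower were Meis1 (-0.94 ± 0.06), Meis2 (-0.89 ± 0.05) and Meis3 (-0.86 ± 0.11). In alphaKO 2 were higher and 3 lower at day 2, against 19.9% and 20.3% of all genes.

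Of 19 Polycomb and trithorax genes, alphaKO had 6 higher and 9 lower than WT at day 0, 11 and 2 at day 2 and 12 and 2 at day 4, where all genes gave 17.7% and 20.9%, 19.9% and 20.3%, and 28.7% and 24%. FullKO had 1 and 3, 12 and 4, and 11 and 2, where all genes gave 16.2% and 17.7%, 23.8% each way, and 25.1% and 24.5%. Jarid2, a Polycomb recruiting subunit, was higher in fullKO by 1.12 ± 0.04 at day 2 and 1.11 ± 0.05 at day 4, and in alphaKO by 0.89 ± 0.04 at day 2. Rnf2, the Polycomb ubiquitin ligase, was higher in alphaKO on all days, by 1.17 ± 0.05 at day 0, 1.15 ± 0.05 at day 2 and 1.22 ± 0.04 at day 4. Among 7 hindbrain segment genes 6 were higher in alphaKO and 3 in fullKO at day 4, against 28.7% and 25.1% of all genes. Gbx2, expressed at the front of the hindbrain, was higher by 2.21 ± 0.18 and 2.69 ± 0.17. In WT Gbx2 fell at both steps, by -2.295 ± 0.12 from day 0 to day 2 and by -1.94 ± 0.19 from day 2 to day 4. What its higher level in the knock-outs reflects was not tested.

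Markers of other cell types that retinoic acid cultures can hold were counted at day 4, when 28.7% of all genes were higher and 24% lower in alphaKO, and 25.1% and 24.5% in fullKO. Of 8 primitive endoderm markers 6 were higher in each knock-out, with 1 lower in fullKO, and their sum was 2868 ± 92.4 CPM in WT, 3752 ± 210.2 in alphaKO and 2655 ± 235 in fullKO. Of 8 neural progenitor markers tested, 5 were higher and 3 lower in alphaKO, and 2 higher and 4 lower in fullKO. The sum of the 9 listed was lower in both knock-outs, at 659 ± 41.6 CPM in WT against 332 ± 25.6 in alphaKO and 268 ± 17.9 in fullKO, so that the sum and the count in alphaKO pointed in opposite directions. Of 5 mesoderm markers tested, 2 were higher in each knock-out and 1 was lower in alphaKO. The sum of the 7 listed was 20.35 ± 1.13 CPM in WT, 30.4 ± 2.25 in alphaKO and 20.6 ± 0.66 in fullKO. Of 6 forebrain markers 2 were higher in each, with 3 lower in alphaKO and 2 in fullKO. Their sum was 23.8 ± 0.91 CPM in WT, 11.99 ± 1.90 in alphaKO and 13.2 ± 0.87 in fullKO, and neither knock-out overlapped WT. The part of these cell types in the Hox results was not tested.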

How the data were processed

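The authors deposited 1 table of raw read counts per gene for 26 libraries. Per the labels' protocols RNA was extracted with RNeasy columns and libraries were made with a stranded KAPA mRNA kit, and per the submitters' processing notes FastQC, STAR 2.7.1a and the mm10 build were used. For counting, the tool and strand setting were not given in the sources used here. Gene models, lengths and positions came from GENCODE M21 (55230 of 55471 IDs matched).

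Groups of genotype and day came from the labels. Counts were tested with edgeR 4.0.16 (R 4.3.3, limma 3.58.1; TMM scaling, filterByExpr, quasi-likelihood F test) in 1 fit over all 9 groups and 17 comparisons, with Benjamini-Hochberg adjustment over 18412 genes. A call is an adjusted p under 0.05. CPM used TMM library sizes, and rank correlations (SciPy 1.17.1) used log2 CPM per kb with a prior count of 0.5 in each library. DESeq2 1.42.0, RLE scaling, other filters, a replicate block, the compared groups alone and each library left out were the alternatives. On data simulated over 16763 genes for the day 2 comparison of alphaKO and WT, the test found 93% of 2-fold and 77% of 1.5-fold changes, 100 genes each, and 8 false calls. The changed genes were drawn from those with a WT day 2 mean of at least 1 CPM. Members below that level, as many were at day 0, are not covered by these shares.

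Values by library are given chiefly for the most 3′ member of each cluster, paralog groups 4 and 5, the most 5′ member that reached a group mean of 1 CPM, and, among members that reached that mean, the 5 called with the largest change in each knock-out comparison with WT. From each list up to 3 called genes of largest change are named. The members and lists were chosen with earlier results of these data known. 1 gene that the naming rule takes is not reported here.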

Additional observations from a re-analysis of the deposited data

Results flagged for a closer look

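The step from day 2 to day 4 in each knock-out was tested gene by gene against the same step in WT (interaction term, edgeR quasi-likelihood test, Benjamini-Hochberg adjusted p under 0.05). In alphaKO 9 members had a higher step and 4 a lower one, and among those with a difference of over 1 on the log2 scale were Hoxd1 (1.13 ± 0.27, adjusted p = 0.000837) and Hoxd3 (2.04 ± 0.57, adjusted p = 0.0044). In fullKO 9 members had a higher step and 3 a lower one. The fullKO differences over 1 were those of Hoxa13 (2.69 ± 0.90), Hoxd3 (1.72 ± 0.61), Hoxb13 (1.44 ± 0.27), Hoxd13 (1.29 ± 0.29), Hoxb1 (1.19 ± 0.09) and Hoxd1 (1.08 ± 0.28).

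The Hoxd3 and Hoxa13 calls in fullKO rested on few counts, with 5, 12 and 5 for Hoxd3 and 7, 4 and 0 for Hoxa13 in fullKO at day 2. The Hoxd3 call was lost without WT day 2 replicate 3 (1.33), WT day 4 replicate 3 (1.54), fullKO day 2 replicate 1 (1.52), fullKO day 2 replicate 3 (1.54) or fullKO day 4 replicate 1 (1.70). The Hoxa13 call was lost without WT day 2 replicate 1 (2.48), WT day 2 replicate 2 (2.497) or fullKO day 2 replicate 3 (2.14). The calls of Hoxb1, Hoxb13, Hoxd1 and Hoxd13 in fullKO, and of Hoxd1 and Hoxd3 in alphaKO, were kept under each alternative run.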

How the results depend on the processing

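No member count and no correlation over all members was labelled reversed, and correlations within single clusters were not recomputed. For a correlation that label needed a main value larger than its spread. The correlation with level in WT at day 0 was 0.06, with an SD of 0.07 between libraries, and could not get the label. Its single libraries ran from -0.01 to 0.12. The correlation of paralog number with level, with the longest transcript as length, with CPM not divided by length, and over the members that pass the filter, was -0.55, -0.56 and -0.50 in WT at day 2, -0.45, -0.46 and -0.40 in WT at day 4, -0.42, -0.42 and -0.36 in alphaKO at day 4, -0.45, -0.43 and -0.39 in fullKO at day 2, and -0.38, -0.38 and -0.30 in fullKO at day 4. Over the members that pass the filter it was -0.45 in alphaKO at day 2. Leaving out each library gave -0.4003 to -0.397 in alphaKO at day 4, -0.42 to -0.41 in fullKO at day 2 and 0.31 to 0.43 in fullKO at day 0. For the step from day 2 to day 4 in alphaKO it gave 0.25 to 0.33.

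With only the groups compared in the fit, 8 members fell from day 2 to day 4 in alphaKO. In that fit alphaKO had 0 members higher than WT at day 0 and 7 lower at day 4, and against fullKO at day 0 it had 6 higher and 0 lower. In that fit and with DESeq2, 5 members had a lower step in fullKO. These fits hold fewer samples, and the cause was not tested for DESeq2. Leaving out each library gave 0 to 1 lower in fullKO from day 0 to day 2 (1 without fullKO day 2 replicate 1). At day 0 it gave 1 to 4 higher in alphaKO than in WT (1 without WT replicate 3) and 0 to 2 higher in fullKO (2 without WT replicate 3, 0 without fullKO replicate 2). For alphaKO against fullKO at day 0 it gave 8 to 15 higher (8 without alphaKO replicate 3, 9 without fullKO replicate 2) and 0 to 1 lower, and at day 2 it gave 1 to 2 lower (1 without alphaKO replicate 2 or 3 or fullKO replicate 1 or 2).

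Same-numbered replicates showed no strong shared deviation (r from -0.0999 to 0.118 over 11196 genes). With so few libraries in a group, that cannot show whether the numbers pair the samples. A replicate block moved 4 member counts: 18 for 19 rising in WT from day 2 to day 4, 20 for 21 in alphaKO, 33 for 34 from day 0 to day 2 in fullKO, and 6 for 5 higher in fullKO than in WT at day 4. Over single members, 189 of the leave-one-out values lost a call and 46 gained one, and 3872 kept their side. DESeq2 kept 610, lost 6 and gained 8. Counts of under about 10 per library at day 0 limit what can be called there.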
